A study of Mus musculus with 3 samples.

Results

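Interferon-stimulated genes, a module of 43 genes whose transcription is raised by interferons, were examined in RNAseq data from sorted cells of mice bearing kidney tumors. The list was chosen from what is known of these genes, with earlier results of these data known. All 43 were found among the 33506 genes of the table. BALB/C mice carried Renca tumors, which grow from a mouse renal tumor cell line, inside the kidney, and type-1 macrophages (M1), type-2 macrophages (M2) and CD4 T cells were sorted by FACS with antibodies to CD45.2, TCRbeta, CD4, F4/80 and CD11b. Cells were pooled from 30 tumors for the macrophages and from 4 spleens of tumor-bearing mice for the CD4 T cells, although the cell type label of the CD4 library names renal tumors as its organ. The labels give both day 14 and day 16 after tumor injection. All 3 groups came from tumor-bearing mice without other treatment in the labels. Each group had 1 library, so that no difference below has a replicate check and no test between groups was possible.

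Type I interferons (the alpha and beta forms) bind a receptor that acts through the kinases JAK1 and TYK2, and a complex with STAT2 and IRF9 then binds the interferon-stimulated response element (ISRE). Interferon gamma, made mainly by T cells and NK cells, acts through JAK1 and JAK2 on genes with the gamma-activated site (GAS). Many genes respond to both. The IFIT, OAS and MX genes are best known as targets of type I interferons, and the GBP and IRG GTPases and the genes of antigen processing as strong targets of interferon gamma. In tumors these genes are read as traces of interferon signaling in immune and tumor cells.

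Levels of cell type markers go against 2 of the 3 library names, and the libraries are therefore called below by their labels. All 10 T-cell markers were highest in the library labelled M2, where they summed to 1539 FPKM (fragments per length of transcript and per library size), against 5.31 FPKM in that labelled M1 and 2.67 FPKM in that labelled CD4. The 11 macrophage markers summed to 8146 FPKM in the library labelled M1, 624 in that labelled M2 and 12664 in that labelled CD4. None of these 21 markers was listed at 0 in any library. All 5 markers of plasmacytoid dendritic cells were also highest in the library labelled M2, with sums of 2.11 FPKM in M1, 62.4 in M2 and 6.69 in CD4, and 2 of the 5 were listed at 0 in M1 and 1 in CD4. Markers of B cells, NK cells, neutrophils and kidney epithelium summed highest in M2 as well, at 47.0, 11.5, 223 and 99.4 FPKM, against at most 0.492, 0.273, 47.2 and 51.2 FPKM in the other 2 libraries, with 3 of 5, 3 of 4, 4 of 5 and 3 of 5 markers highest there. Of 4 endothelial markers 1, Pecam1, was highest in M2 and 3 in CD4. Depth, estimated from the level that 1 fragment gives, was 59600000 fragments for M1, 60400000 for M2 and 74700000 for CD4. In such bulk RNA, fewer cells of a type and less RNA per cell cannot be told apart, and the part of the cell makeup in the differences below was not tested.

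The 2 response elements were searched in the RefSeq promoter windows of mouse build GRCm38.p6, which run from 250 bases before to 50 bases after a transcription start and were held for 33 of the 43 members, as 36 windows. The ISRE was written GAAANNGAAA, or TTTCNNTTTC on the other strand, and the GAS as TTCNNNGAA, which reads alike on both strands, with N for any base. The ISRE letters were present in 19 of 36 member windows (52.8%), against 1131 of all 32851 windows (3.44%). The GAS letters were present in 11 member windows (30.6%), against 2726 of all windows (8.30%). A match describes letters and not binding, and 1 match may overlap another. Stretches upstream of the start are shown for 6 members that take opposite sides in the comparisons below, 3 effector or ubiquitin-like genes that were lower in the library labelled M2 than in that labelled M1 and 3 GTPase genes that were higher. They are written 5′ to 3′ on the strand of the gene, with the bases of matches that the motif fixes in capitals.
Isg15: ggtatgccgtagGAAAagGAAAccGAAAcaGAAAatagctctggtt
Ifit1: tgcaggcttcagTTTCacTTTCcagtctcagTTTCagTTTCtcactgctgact
Oas1a: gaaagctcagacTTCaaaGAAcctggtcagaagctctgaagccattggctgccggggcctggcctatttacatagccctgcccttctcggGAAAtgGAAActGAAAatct
Gbp2: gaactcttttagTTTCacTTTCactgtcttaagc
Igtp: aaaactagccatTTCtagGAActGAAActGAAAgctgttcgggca
Irgm2: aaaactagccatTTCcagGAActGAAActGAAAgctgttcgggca

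In build GRCm38.p6 these stretches lie at chr4:156200863-156200908 on the minus strand (Isg15), chr19:34640773-34640825 on the plus strand (Ifit1) and chr5:120907526-120907635 on the minus strand (Oas1a). Those of the GTPase genes lie on the plus strand, at chr3:142620592-142620625 (Gbp2), chr11:58199499-58199543 (Igtp) and chr11:58214890-58214934 (Irgm2). In Isg15 the GAAA blocks follow each other in 3 overlapping matches, and in Ifit1 there are 2 separate matches on the opposite strand. Oas1a holds a GAS match far upstream and its ISRE matches next to the start. In Igtp and Irgm2 a GAS match precedes the ISRE by a few bases, in 2 stretches of 45 bases that differ at 1 position.

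Every one of the 7 GBP and IRG GTPase genes with a window held the ISRE letters, as did 3 of 3 sensor genes and 7 of 11 antiviral effector genes. The GAS letters were in 4 of the 7 GTPase genes (Gbp5, Gbp7, Igtp and Irgm2) and in 4 of the 11 effector genes (Bst2, Ifit2, Ifitm3 and Oas1a). Among the 3 genes of antigen processing, none held the ISRE letters in this window and 1, Psmb8, held those of the GAS. Of the ISG15 system 1 of 3 genes (Isg15) and of the transcription factors 1 of 3 (Stat2) held the ISRE letters.

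**Figure D1:**
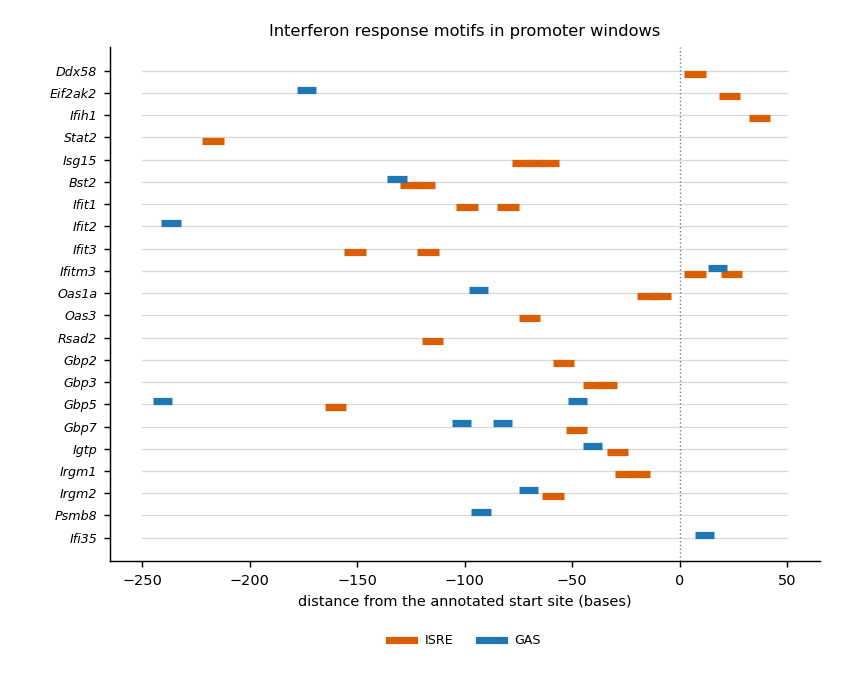
Positions of the ISRE letters (orange) and GAS letters (blue) in the RefSeq promoter windows of 22 interferon-stimulated genes with a match, drawn as distance in bases from the annotated start (dotted line), with each window as a gray line. All ISRE matches of the GTPase genes lie upstream of the start, while those of Ddx58, Eif2ak2, Ifih1 and Ifitm3 lie downstream of it.

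Levels follow a row rule, which keeps for each transcript identifier the first row with a value in all 3 libraries and sums these per gene, and the sum over all rows of a gene is given where it changes a result. Differences are given as log2 ratios of FPKM + 1, on which changes of weakly expressed genes look smaller, and a gene was counted as higher or lower when this ratio reached 1 in size, that is 2-fold. Of the 43 members, 7 (16.3%) had more and 12 (27.9%) less in the M2 library than in the M1 library. Over all 33506 genes 6.27% were higher and 5.38% lower, and among the 12415 genes that reached 1 FPKM in either library 16.9% were higher and 14.5% lower. The share of members that were higher was thus near that of expressed genes, and the share that were lower was above it. Between the libraries labelled CD4 and M1, 6 members were higher (14.0%) and 0 lower, against 2.42% and 2.49% of all genes and against 7.01% and 7.21% of the 11572 genes reaching 1 FPKM. Between the libraries labelled M2 and CD4, 5 members were higher in M2 (11.6%) and 12 lower (27.9%). Of all genes 6.4% were higher and 5.68% lower in this last comparison, and of genes reaching 1 FPKM 17.3% and 15.3%. The comparisons share libraries in pairs and are not independent of each other.

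The median log2 ratio of the members was -0.11 between M2 and M1, 0.16 between CD4 and M1 and -0.55 between M2 and CD4, while the medians over genes reaching 1 FPKM were 0.10, -0.01 and 0.12. These medians cover members that took opposite sides by role. The antiviral effectors summed to 600 FPKM in M1, 175 in M2 and 637 in CD4, and the GBP and IRG GTPases to 79.1, 214 and 125 FPKM. Of the effector sums, Ifitm3 alone gave 368, 60.0 and 346 FPKM. Median levels were 15.7, 5.26 and 16.6 FPKM for the effectors and 9.52, 19.4 and 13.1 FPKM for the GTPases. The 43 members together summed to 1064 FPKM in M1, 915 in M2 and 1224 in CD4. The highest level was in the library labelled M1 for 14 members, in M2 for 13 and in CD4 for 15, and 1 member, Psmb9, was listed at 0 in all 3.

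**Figure D2:**
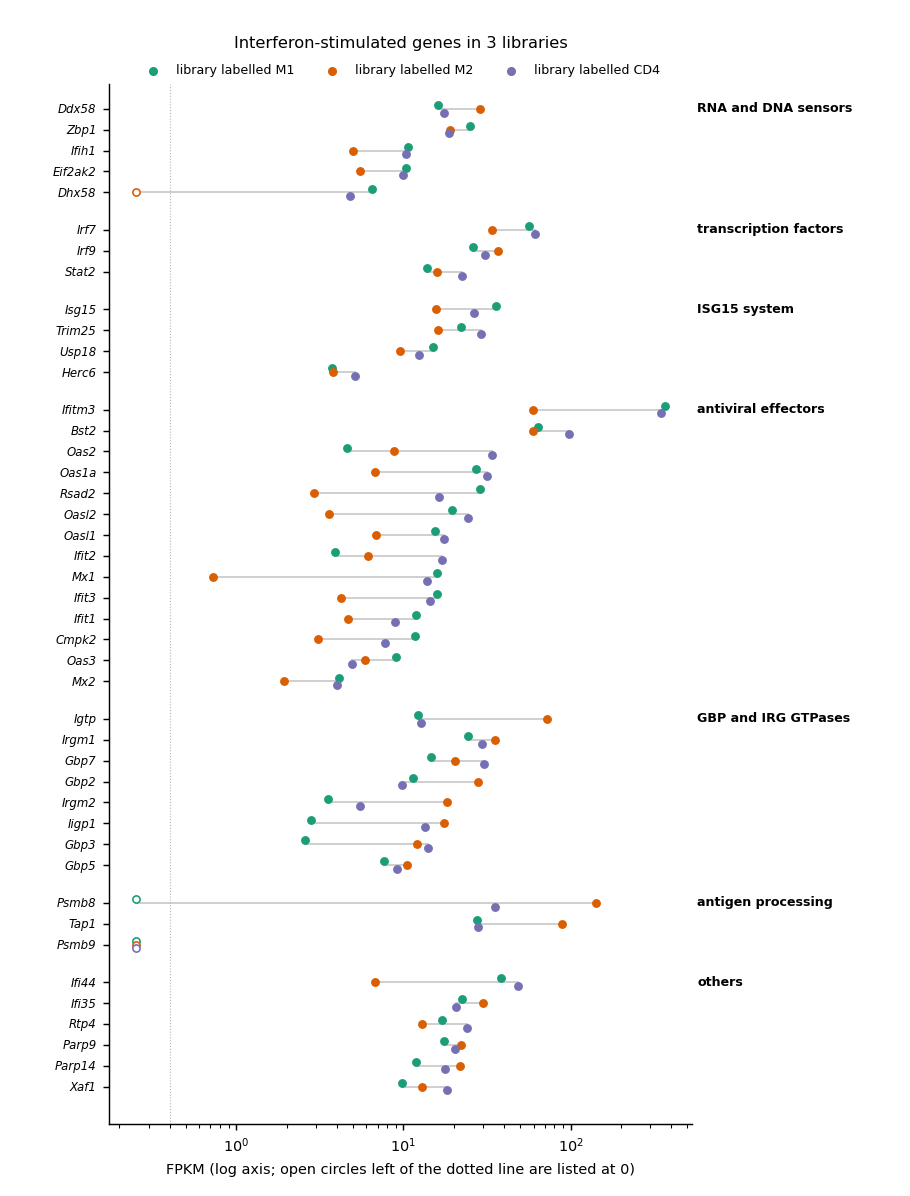
Levels of the 43 interferon-stimulated genes in FPKM (log axis), ordered by role, with 1 point per library and open circles for genes listed at 0. The orange points of the library labelled M2 lie left of the other 2 for most antiviral effectors and right of them for Igtp, Irgm2, Gbp2 and Tap1.

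The antiviral effectors held most of the members that were lower in the library labelled M2. Of 14 genes, 9 were lower in M2 than in M1 and 0 higher, with a median log2 ratio of -1.42 and 12 of 14 below 0. Against the library labelled CD4, 10 of 14 were lower and 0 higher, with a median of -1.45 and 13 of 14 below 0. Between CD4 and M1 the median was -0.06, with 2 of 14 higher. The library labelled M2, which held the T-cell markers, had the lowest level for 11 of the 14 genes, the exceptions being Ifit2, Oas2 and Oas3.

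Rsad2 encodes viperin, which turns CTP into a chain terminator of viral RNA synthesis. Its level was 28.9 FPKM in M1, 2.90 in M2 and 16.3 in CD4, that is 9.94-fold lower in M2 than in M1 and 5.60-fold lower than in CD4. Cmpk2, a mitochondrial nucleotide kinase whose gene lies beside Rsad2 on chromosome 12, had 11.7, 3.06 and 7.71 FPKM in the same order. Both neighbors thus had the same order of libraries, M1 above CD4 above M2. Ifitm3, a membrane protein that hinders the entry of viruses from endosomes, was the most abundant member in M1 and CD4, with 368 FPKM in M1, 60.0 in M2 and 346 in CD4. It was 6.13-fold lower in M2 than in M1, with a log2 ratio of -2.60, while CD4 and M1 differed by a log2 ratio of -0.09.

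Mx1 encodes a GTPase that blocks the replication of influenza and related viruses in the nucleus, and most laboratory strains carry a defective copy of it. By the row rule Mx1 had 15.9 FPKM in M1, 0.723 in M2 and 13.7 in CD4, that is 21.9-fold lower in M2 than in M1. Its additional rows held 1 row of 42340 FPKM with a value in M1 alone. Through that row, the log2 ratio between M2 and M1 moved from -3.29 to -12.35 when all rows were summed, and that between CD4 and M1 from -0.19 to -10.96. Summing all rows also raised Mx1 to 7.10 FPKM in M2 and 20.3 in CD4. The log2 ratio of M2 against CD4, which that row does not enter, moved from -3.10 to -1.39, so the fold of Mx1 depends on the row rule. Mx2, a relative of Mx1 that acts outside the nucleus, was low in each library with 4.11, 1.94 and 4.03 FPKM. Its raw levels were 2.12-fold and 2.08-fold lower in M2 than in M1 and CD4, but the ratios of FPKM + 1 did not reach the limit. With 0.1 in place of 1 added, both did, with -1.05 and -1.02.

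The IFIT proteins bind viral RNA that lacks the cap marks of the host. On build NCBIM37, Ifit2 (34625184 to 34650909), Ifit3 (34658021 to 34663221) and Ifit1 (34715361 to 34724499) lie next to each other on the plus strand of chromosome 19. Ifit3 had 15.8 FPKM in M1, 4.20 in M2 and 14.5 in CD4, with log2 ratios of -1.69 for M2 against M1 and -1.57 for M2 against CD4. Ifit1 had 11.9, 4.63 and 8.89 FPKM, with a log2 ratio of -1.2 for M2 against M1, which was -0.98 after rescaling to the same total of protein-coding genes. Ifit2 had 3.90 FPKM in M1, 6.12 in M2 and 17 in CD4, an order unlike that of the other pair. When all rows of Ifit2 were summed, the levels were 18.7, 14.2 and 17.2 FPKM and the log2 ratio of CD4 against M1 changed from 1.87 to -0.11, and that of M2 against CD4 from -1.34 to -0.27.

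The OAS enzymes make 2′-5′ oligoadenylates, which activate RNase L when double-stranded RNA is present. Oas1a had 27.1 FPKM in M1, 6.71 in M2 and 31.5 in CD4, with log2 ratios of -1.87 for M2 against M1 and -2.08 for M2 against CD4. Oasl2, a related protein with ubiquitin-like domains, had 19.6, 3.59 and 24.3 FPKM, with log2 ratios of -2.17 and -2.46. Both were low in M2 alone, and with all rows the log2 ratio of CD4 against M1 was 1.10 for Oas1a and -0.57 for Oasl2. Oasl1, which is known to hold back the translation of Irf7, had 15.5, 6.90 and 17.5 FPKM and passed the limit in M2 against M1 with -1.06, and with all rows the ratio was -0.31, and -0.35 against CD4. Oas2 differed from its relatives, with 4.58 FPKM in M1, 8.74 in M2 and 33.7 in CD4, and its log2 ratio of M2 against M1 moved from 0.80 to -1.05 when all rows were summed. Oas3 had 9.04, 5.89 and 4.95 FPKM and passed no limit. How fragments were shared among the closely similar copies of the OAS, IFIT, GBP and IRG families is not given in the sources used here, so values of single genes in these families are uncertain to that extent.

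Bst2, also called tetherin, holds budding viruses at the cell surface and is a surface marker of plasmacytoid dendritic cells in mice. It had 63.9 FPKM in M1, 59.2 in M2 and 97.6 in CD4 and was past no limit, although the 5 plasmacytoid markers given above were highest in M2. It was the second most abundant effector after Ifitm3 in each library.

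The GBP and IRG GTPases, which coat and break the vacuoles of intracellular pathogens, took the other side. Of 8 genes, 5 were higher in M2 than in M1 and 0 lower, with a median log2 ratio of 1.54 and 8 of 8 above 0. Between M2 and CD4, 3 of 8 were higher with a median of 0.30 and 6 of 8 above 0. Between CD4 and M1, 3 of 8 were higher with a median of 0.40. T-cell markers and Ifng moved with the comparisons of M2, and their part in these values was not tested.

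Igtp (also called Irgm3) had 12.2 FPKM in M1, 72.1 in M2 and 12.7 in CD4, that is 5.91-fold higher in M2 than in M1 and 5.66-fold higher than in CD4. With all rows it had 14.6, 193 and 12.7 FPKM, and the log2 ratio of M2 against M1 moved from 2.47 to 3.63 and that of M2 against CD4 from 2.41 to 3.82. Irgm2, its neighbor on chromosome 11, had 3.55, 18.3 and 5.51 FPKM, that is 5.16-fold and 3.32-fold higher in M2. Both are regulators that keep the effector GTPases off the membranes of the host cell, and both carry the nearly identical stretch with GAS and ISRE letters printed above. Irgm1, the remaining regulator of this kind, lies elsewhere on the same chromosome and had 24.3, 35.5 and 29.7 FPKM, with a log2 ratio of 0.53 for M2 against M1. It did not pass the limit in any comparison. Iigp1, an effector GTPase, had 2.79 FPKM in M1, 17.6 in M2 and 13.5 in CD4, that is 6.29-fold higher in M2 than in M1. In contrast to Igtp, its level in CD4 was also above that in M1, with a log2 ratio of 1.94.

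The 4 guanylate-binding proteins of the list, Gbp2, Gbp3, Gbp5 and Gbp7, are encoded in 1 cluster on chromosome 3 and assemble on pathogens and on their membranes. Gbp2 had 11.4 FPKM in M1, 27.8 in M2 and 9.80 in CD4, with log2 ratios of 1.22 for M2 against M1 and 1.42 for M2 against CD4. Gbp5, which also promotes inflammasome assembly, had 7.66, 10.5 and 9.17 FPKM and passed no limit by the row rule. When the identifier with the highest mean level alone was used, its log2 ratio of M2 against M1 was 1.05. Gbp3 had 2.57, 12 and 14.1 FPKM, so that M1 stood below both other libraries, and the log2 ratio of M2 against M1 moved from 1.87 to 0.33 and that of CD4 against M1 from 2.08 to 0.54 with all rows summed. Gbp7 had 14.6, 20.5 and 30.3 FPKM and an additional row of 262 FPKM with a value in M2 alone, with which its log2 ratio of M2 against M1 moved from 0.46 to 4.24 and that of M2 against CD4 from -0.55 to 3.23.

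Antigen processing genes make and carry peptides for MHC class I molecules, and Psmb9, Tap1 and Psmb8 lie next to each other on chromosome 17. Tap1, a subunit of the peptide transporter of the endoplasmic reticulum, had 27.4 FPKM in M1, 88.3 in M2 and 27.9 in CD4, that is 3.22-fold and 3.16-fold higher in M2. It lies from 34324498 to 34334170 on build NCBIM37, had no additional rows, and had nearly the same level in M1 and CD4. Psmb8, a catalytic subunit of the immunoproteasome, was listed at 0 in M1, at 142 FPKM in M2 and at 35.3 in CD4. A value of 0 can be a failed estimate in such a table, and no fold against it is given. An additional row of Psmb8 held 107 FPKM in M1 and 45.3 in CD4, so that all rows summed to 107, 142 and 80.7 FPKM, with log2 ratios of 0.40 for M2 against M1 and 0.81 for M2 against CD4. The count of Psmb8 among the genes higher in M2 therefore held for the row rule but not for the sum over rows. Psmb9, another immunoproteasome subunit, was listed at 0 in each library under 2 gene identifiers and shares 200 bases of its span with Tap1, so that it gives no comparison.

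**Figure D3:**
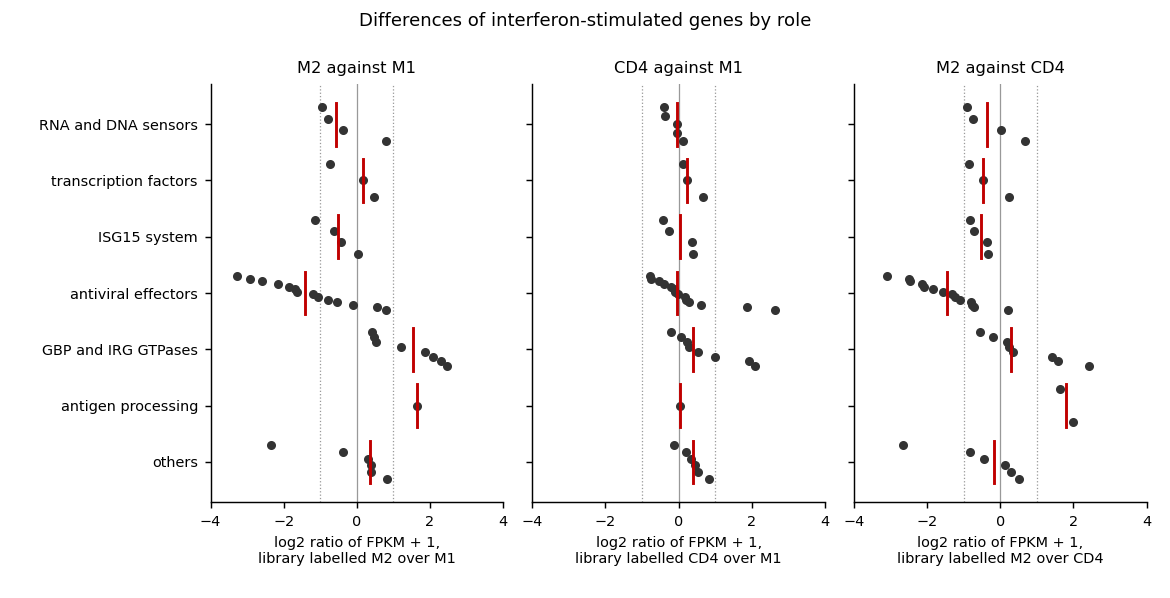
Log2 ratios of FPKM + 1 of the interferon-stimulated genes by role, with 1 point per gene, red bars for the median of the points and dotted lines at the 2-fold limit. Members listed at 0 in either library of a comparison are left out of points and bars, which concerns Dhx58, Psmb8 and Psmb9. In both comparisons of M2 most antiviral effectors lie left of 0, while all 8 GTPases lie right of 0 in M2 against M1.

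Of the 5 sensors of foreign nucleic acid, 1 was past the limit in the comparisons of M2, Dhx58, through a listed 0. Ddx58 encodes RIG-I and had 16.0 FPKM in M1, 28.5 in M2 and 17.4 in CD4, with a log2 ratio of 0.80 for M2 against M1. Ifih1 encodes MDA5, the sensor of long double-stranded RNA, and had 10.6, 5.0 and 10.4 FPKM, with a log2 ratio of -0.95. The 2 RNA sensors thus differed in direction, and neither reached the limit. Dhx58 encodes LGP2, which modulates both of them, and had 6.45 FPKM in M1, 4.81 in CD4 and a listed 0 in M2. Eif2ak2 encodes PKR, the kinase that stops translation on double-stranded RNA, and had 10.3, 5.51 and 9.95 FPKM with a log2 ratio of -0.80 for M2 against M1. Zbp1, a sensor of Z-form nucleic acid that can start necroptosis, had 24.9, 19.0 and 18.8 FPKM, and its log2 ratio of M2 against M1 was -0.37 by the row rule and 0.39 with all rows.

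None of the 3 transcription factors of the list passed the limit in any comparison by the row rule. Irf7, the factor that amplifies production of type I interferon, had 56.4 FPKM in M1, 33.6 in M2 and 61.5 in CD4, with log2 ratios of -0.73 for M2 against M1 and -0.85 for M2 against CD4. Irf9, the DNA-binding part of the complex that reads the ISRE, had 26.0, 36.7 and 30.8 FPKM. Stat2, its partner, had 13.9, 15.8 and 22.4 FPKM. When the identifier with the highest mean level alone was used, Irf7 had log2 ratios of -1.21 for M2 against M1 and -1.32 for M2 against CD4 and Irf9 had 1.11 and 1.05, so that both passed the limit, on opposite sides.

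In the ISG15 system, Isg15 encodes the ubiquitin-like protein itself, and had 36.0 FPKM in M1, 15.7 in M2 and 26.5 in CD4, with a log2 ratio of -1.15 for M2 against M1, which was -0.91 after rescaling to the same total of protein-coding genes. Usp18 removes ISG15 from proteins and also dampens signaling at the type I receptor, and had 15.1, 9.49 and 12.3 FPKM. Herc6, the ligase that attaches ISG15 in mice, was low with 3.74, 3.80 and 5.14 FPKM, and its log2 ratio of M2 against M1 was 0.02 by the row rule and 1.62 with all rows, and that of M2 against CD4 was -0.35 and 1.08. Trim25, a ligase that also activates RIG-I, had 22.0, 16.2 and 29.3 FPKM and an additional row of 616 FPKM with a value in M1 alone, which moved the ratio of M2 against M1 from -0.42 to -5.02 and that of CD4 against M1 from 0.39 to -4.43. Of the 4 genes Isg15 alone passed the limit by the row rule.

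Among the 6 other members, Ifi44, a cytoplasmic protein with a GTP-binding motif, had 38.2 FPKM in M1, 6.75 in M2 and 48.3 in CD4, with log2 ratios of -2.34 for M2 against M1 and -2.67 for M2 against CD4. It followed the antiviral effectors. Ifi35, whose product associates with the interferon-induced protein NMI, had 22.5, 29.9 and 20.6 FPKM. Parp9 and Parp14, which add ADP-ribose to proteins and lie near each other on chromosome 16, had 17.6, 22.2 and 20.3 FPKM and 11.9, 21.7 and 17.6 FPKM. Rtp4, a chaperone of membrane receptors, had 17.1, 12.9 and 23.9 FPKM, and Xaf1, which favors apoptosis, had 9.77, 13 and 18.1 FPKM. None of these last 5 passed the limit in any comparison by the main setting. For M2 against M1, Parp14 had a log2 ratio of 1.05 after rescaling to the same total of protein-coding genes and -0.18 with all rows.

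Comparison of the libraries labelled CD4 and M1, both with high macrophage markers, gave 6 members higher in CD4, namely Ifit2, Oas2, Gbp3, Gbp7, Iigp1 and Psmb8, and 0 lower. All 6 had additional rows. Among the 13 members without additional rows, 0 were higher and 0 lower in CD4 against M1, with a median log2 ratio of 0.03. The largest differences by the row rule were those of Oas2 with a log2 ratio of 2.63, Gbp3 with 2.08 and Iigp1 with 1.94, besides Psmb8 with its listed 0.

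For 30 members the row rule left out rows, with 109 such additional rows among 267, and many of these held a value in 1 library alone. They are further rows of a kept identifier or rows of an identifier without a value in all 3 libraries. The 13 members without additional rows do not depend on the row rule. Of them, 4 were lower in M2 than in M1 (Ifit3, Ifi44, Rsad2 and Ifitm3) and 1 was higher (Tap1), and the same 5 genes were past the limit on the same sides between M2 and CD4. With all rows summed, the effectors had 9 of 14 lower in M2 than in M1 with a median of -1.47, and the GTPases 5 of 8 higher with a median of 1.5.

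**Figure D4:**
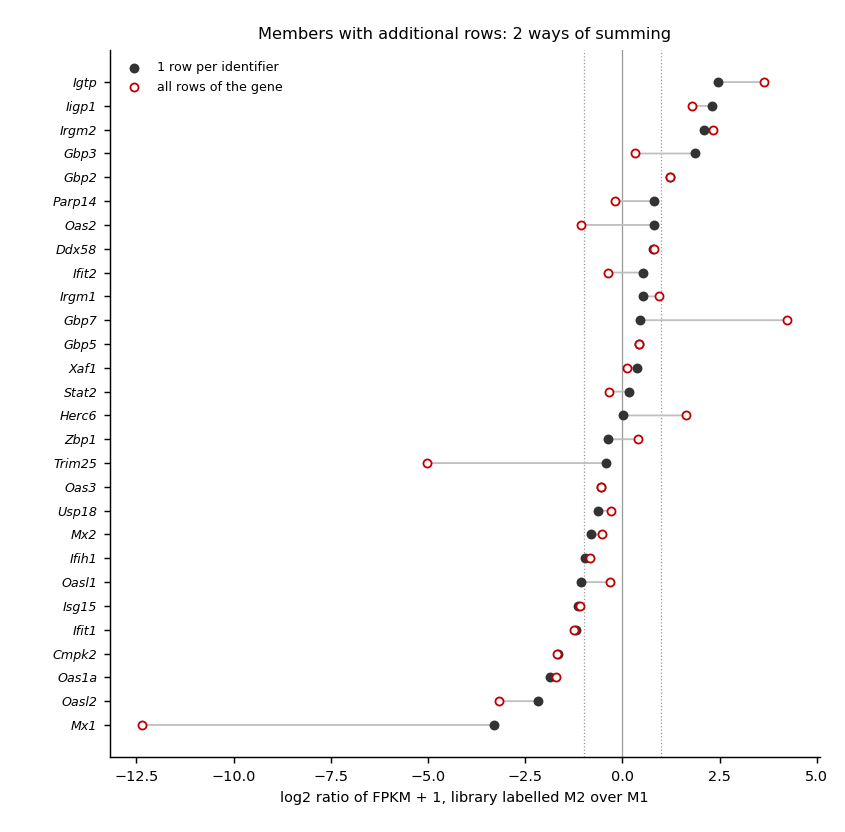
Log2 ratio of FPKM + 1 of M2 over M1 for members with additional rows, by 1 row per identifier (filled) and with all rows of the gene summed (open), joined by gray lines, with dotted lines at the 2-fold limit. Mx1, Trim25 and Gbp7 moved far, to -12.35, -5.02 and 4.24, while Gbp2, Cmpk2 and Ifit1 stayed near their values. Psmb8, listed at 0 in M1 by the row rule, and Dhx58, listed at 0 in M2, are left out.

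The pathway around these genes was examined from lists of ligands, receptors and signaling genes. For the counts in these lists, the shares of all genes reaching 1 FPKM were 16.9% higher and 14.5% lower in M2 against M1. In M2 against CD4 they were 17.3% and 15.3%. Among 7 ligands, Ifng had 0.032 FPKM in M1, 2.52 in M2 and 0.029 in CD4, and was the 1 ligand past the limit. Ifnb1 was at 0.233, 0.328 and 0.11 FPKM and Ifna4 at 0.025, 0 and 0.023 FPKM, while Ifna1, Ifna2, Ifna5 and Il28b were listed at 0 in each library. Ifng was thus highest in the library with the T-cell markers, in which 6 of the 8 GTPases and Tap1 were also highest. A link between Ifng and these levels was not tested. Natural killer cell markers, which mark another source of Ifng, summed to 0.170 FPKM in M1, 11.5 in M2 and 0.273 in CD4.

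Receptor genes were expressed in each library. Ifnar1 had 36.4 FPKM in M1, 31.8 in M2 and 42.0 in CD4, and Ifnar2, the other chain of the type I receptor, had 50.6, 27.8 and 99.9 FPKM. With all rows summed, Ifnar1 had 2594, 38.7 and 9015 FPKM, with a log2 ratio of -6.03 for M2 against M1. Ifngr1, the ligand-binding chain of the interferon gamma receptor, had 74.3, 55.8 and 62.1 FPKM. Its partner Ifngr2 had 11.5, 3.48 and 21.7 FPKM and was the 1 receptor gene of 6 that was lower in M2 than in M1 by the row rule, against 2 of 6 with all rows, while 3 of 6 were lower in M2 than in CD4 and 0 higher.

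Of 5 genes of JAK signaling (Jak1, Jak2, Tyk2, Socs1 and Socs3), 2 were higher and 2 lower in M2 than in M1. Jak1, a kinase of both receptors, had 60.5 FPKM in M1, 146 in M2 and 54.5 in CD4, and Socs1, an inhibitor of these kinases that interferon gamma induces, had 6.14, 15.3 and 1.99 FPKM. Tyk2, a kinase of the type I receptor, had 20.5 and 2.54 FPKM in M1 and M2 and was listed at 0 in CD4, and with all rows it had 28.4, 17.5 and 18.4 FPKM, with a log2 ratio of -0.67 for M2 against M1. Socs3 had 54.5, 19.7 and 53.6 FPKM. Jak1 and Socs1 therefore stood with the GTPases on the side of M2. With all rows 2 of the 5 genes were higher and 1 lower in M2 than in M1.

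Of the 12 genes that sense infection and induce interferon, 6 were lower and 1 higher in M2 than in M1, and with all rows 5 and 1. Irf5, a factor of macrophage inflammatory responses, had 124 FPKM in M1, 10.2 in M2 and 54.8 in CD4. The endosomal receptors of nucleic acid followed, with Tlr7 at 10.9, 3.46 and 34.2 FPKM, Tlr9 at 8.16, 2.35 and 12 FPKM and Tlr3 at 3.85, 0.417 and 7.30 FPKM. Ikbke, a kinase of this pathway, was the 1 gene higher in M2, with 18.8, 50.6 and 16.5 FPKM. With all rows, Tlr7 had a log2 ratio of -0.47 for M2 against M1, in place of -1.42. Of 3 other IRF genes found, Irf1, a target of interferon gamma that drives many GBP and antigen processing genes, had 22.4, 77.9 and 27.4 FPKM, with a log2 ratio of 1.75 for M2 against M1, and Irf4 had 17.3, 2.97 and 2.07 FPKM. The log2 ratio of Irf4 for M2 against M1 was -2.21 by the row rule and -0.70 with all rows, where its level in M2 was 10.3 FPKM.

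**Figure D5:**
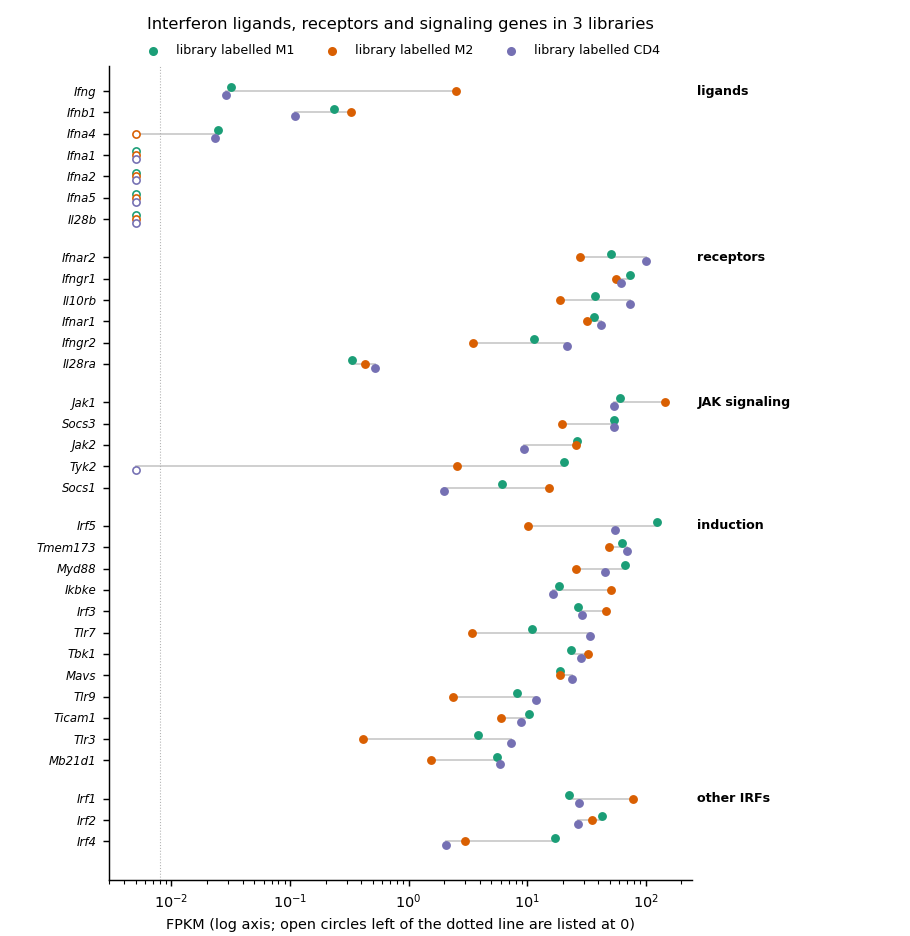
Levels in FPKM (log axis) of interferon ligands, receptors, JAK signaling genes, genes of interferon induction and other IRF genes, with 1 point per library and open circles for genes listed at 0. The library labelled M2 was highest for Ifng, Jak1 and Irf1 and lowest for Irf5, Tlr7, Tlr9 and Tlr3.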

How the data were processed

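RNA from sorted M1, M2 and CD4 T cells was sequenced as paired reads of 51 bases. The authors used TopHat 1.4.1 and Bowtie 0.12.8 for alignment to MM9, and Cufflinks 2.1.0, guided by Ensembl release 67, for transcript levels. The submitters' processing notes also name Cuffdiff. The deposited values are in FPKM, in 1 table with a column per library, and how the 3 assemblies were joined is not given in the sources used here. FPKM values are estimates that share fragments between overlapping transcripts by a model.

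Gene names and positions came from GENCODE on build NCBIM37 (mm9), where 97.6% of 92519 identifiers were found. For each identifier the first row with a value in all 3 columns was kept, and values were summed per gene. A gene was called higher or lower when log2 of the ratio of FPKM + 1 reached 1 in either direction, with no filter on low values. No test was made, since each group had 1 library. Promoter windows were those of RefSeq. The members, roles and pathway lists were chosen with earlier results of these data known, and every member and list gene could be named, except 1 gene of the pathway lists that is not reported here. The alternatives were a pseudocount of 0.1, a minimum of 1 FPKM, other ways to sum rows, 2 scalings and a larger fold limit.

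Depth is not part of FPKM values and was estimated from 2165 single-transcript genes of 2500 to 8000 bases. At these depths the fewest fragments behind a member above 0 were estimated as 379 in M1 (Xaf1), 122 in M2 (Mx1) and 727 in CD4 (Mx2). The calculations were tested on simulated data. Python 3.11.15 was used with numpy 2.4.6, pandas 2.3.3 and matplotlib 3.10.9.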

Additional observations from a re-analysis of the deposited data

How the results depend on the processing

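No paired analysis was possible because each group had 1 library. A pseudocount of 0.1, a minimum of 1 FPKM, the use of 1 identifier per gene and 2 other scalings kept each median of the 43 members on its side of 0, except that the median of M2 against M1 was 0 after rescaling to the same total of protein-coding genes, and kept each count of higher or lower members within 1.5 times. With all rows of a gene summed, 2 members instead of 0 were lower in CD4 than in M1, the median log2 ratio of this comparison was -0.031, and Ifit2 (-0.11), Psmb8 (-0.41) and Trim25 (-4.43) changed sign in it with a value past the limit before or after. So did Oas2 (-1.05) in M2 against M1 and Gbp7 (3.23) and Herc6 (1.08) in M2 against CD4. With a log2 ratio of at least 2 as the limit, 4 members were higher and 6 lower in M2 than in M1, 3 were higher in CD4 than in M1, and 1 was higher and 7 lower in M2 than in CD4. Shares of all genes were taken for the 2-fold limit by the row rule alone. Counts with other limits, sums or scalings therefore have no such share beside them and cannot be set against a background. Among the 13 members without additional rows, a choice made after seeing the data, 1 was higher and 4 lower in M2 than in M1, 0 were higher in CD4 than in M1, and 1 was higher and 4 lower in M2 than in CD4, with 4 members highest in each of M1, M2 and CD4. These counts cover 13 of the 43 members. Leaving out members listed at 0 in a comparison, also chosen after seeing the data, kept each count within 1.5 times. Rescaling to the same total of protein-coding genes raised levels in M2 relative to M1 by a log2 factor of 0.25, before 1 was added to FPKM. In M2 against M1 the effectors then had 7 lower and 1 higher with a median of -1.21, while the GTPases had 5 higher with a median of 1.77. Isg15 (-0.91), Ifit1 (-0.98) and Oasl1 (-0.84) were then no longer past the limit in this comparison. Of 771 values of single genes under these settings, 718 kept their sign and their side of the limit, and 22 changed sign, 15 of them with all rows summed. The libraries have no replicates, so the error of each difference is unknown.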

Other observations

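Among all genes reaching 1 FPKM in M2 or M1, 16.9% were higher and 14.5% lower in M2. Of 35 further genes regulated by interferons, 14 were higher and 8 lower in M2 than in M1 by the row rule, and 11 and 7 with all rows summed. Tap2, of the MHC class I loading machinery, was among the 14 higher ones, at 21.1 FPKM in M1, 64.0 in M2 and 18.4 in CD4. So were the class I gene H2-K1 at 228, 580 and 208 FPKM and Nlrc5, a transcriptional activator of MHC class I genes, at 8.94, 27.1 and 9.95 FPKM. With all rows, H2-K1 had 57424, 955 and 356 FPKM and its log2 ratio for M2 against M1 moved from 1.34 to -5.91, while that of Nlrc5 moved from 1.5 to 0.99. B2m, the constant chain of class I molecules, was at 1300, 1668 and 1761 FPKM and passed no limit. H2-D1 (507, 917 and 587 FPKM), Tapbp (63.7, 114 and 71.7) and Psmb10 (47.7, 48.5 and 42.6) also passed none by the row rule. With all rows, the log2 ratio of H2-D1 for M2 against M1 was -4.11. Further GTPases of the same families were higher in M2, with Gbp4 at 9.0, 60.5 and 6.14 FPKM, Gbp6 at 1.85, 23.6 and 6.75 FPKM, Gbp9 at 7.14, 34.0 and 11 FPKM and Tgtp2 at 3.88, 46.6 and 8.68 FPKM. Tgtp1, a nearly identical neighbor of Tgtp2, was at 0.692, 40.1 and 0.473 FPKM.

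Genes lower in M2 included Cxcl10, a chemokine that attracts T cells, at 36.7 FPKM in M1, 5.91 in M2 and 27.5 in CD4, and Ifitm2, a relative of Ifitm3, at 245, 61.9 and 382 FPKM. Cxcl9 was at 1.71 FPKM in M1, a listed 0 in M2 and 2.51 in CD4. Ifitm1 was at 9.36, 2.63 and 5.42 FPKM, and its log2 ratio for M2 against M1 was -1.51 by the row rule and -0.96 with all rows. Ifi205 and Ifi203, related genes of the same family, took opposite sides, with 21.5, 3.74 and 6.81 FPKM for Ifi205 and 38.5, 97.5 and 56.3 FPKM for Ifi203. Relatives of Oas1a also differed in side. Oas1b (2.49, 7.29 and 2.40 FPKM) and Oas1c (0.309, 2.61 and 0.829 FPKM) were higher in M2 than in M1, unlike most antiviral effectors. Their log2 ratios were 1.25 and 1.46 by the row rule and 2.21 and 0.89 with all rows. Oas1g had 13.6 FPKM in M1, a listed 0 in M2 and 18.4 in CD4, and a log2 ratio of -0.85 for M2 against M1 with all rows. Ly6e was listed at 0 in each library by the row rule, and with all rows at 106 FPKM in M2. These lists were chosen with earlier results of these data known.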
